A study of Emberiza melanocephala with 15 samples.

Results

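The 150 assembled genes described here were those whose levels stood highest in the hypothalamus of photorefractory blackheaded buntings at hour 18 of an extended light period, relative to every other bird of the series. They were chosen on measured values. Estimated read counts were summed per assembled gene and divided by the library total, which gave counts per 1000000 (CPM), and log2(CPM + 1) was taken. Genes with a summed count of at least 20 in both photorefractory hour 18 birds were ranked by a gap, the log2 level of the lower of these 2 birds minus the highest log2 level among the 13 other birds. The 150 genes of largest gap were kept, out of 317533 assembled genes in all and out of 15239 with the minimum count, of which they made up 0.984%. The level of these genes at photorefractory hour 18 is therefore a description and was not tested.

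Hypothalamic RNA was sequenced from 15 adult male buntings caught in the wild, with 1 library per bird. Photorefractory birds were on long days, on which their gonads had regressed, and photosensitive birds were on short days. On the day of sampling the lights stayed on for both states, and birds were taken 10, 14, 18 or 22 h after light onset. Hours 10 and 14 lay within the usual light period of photorefractory birds but past that of photosensitive birds. Hours 18 and 22 lay past it in both states, by longer in photosensitive birds. The same hour was therefore not the same amount of added light in the 2 states. The groups were photorefractory birds of hours 10, 14, 18 and 22 and photosensitive birds of the same hours, each with 2 birds except photorefractory hour 22, which had 1. The birds of one group differ as individuals, so each SD given here is between birds. Quartiles are across genes, and ranges are across genes or birds as stated.

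Photosensitive songbirds respond to long days with gonadal growth, fattening and migratory readiness, and photorefractory birds no longer respond to the same day length. The hypothalamus reads day length and passes the signal to the pituitary. An extended light period in a bird coming from short days is a standard test of how early that response starts. The files do not pair the identifiers of the assembly with gene names, so no role is given for any member and the tissue label could not be checked against marker genes.

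The 2 photorefractory hour 18 libraries stood apart from the others in more than the members. Their totals were 3441451 and 3176062 estimated counts, the lowest of the series, against 4306137 to 9403923 in the 13 other birds. They held 69467 and 67260 genes with a count above 0, against 87988 to 156146 elsewhere, and their 10 most abundant genes took 5.69% and 5.72% of counts, against 2.61% to 4.62%. Their mean fragment lengths, taken as length minus effective length, were 231.3 and 209.3 nt, against 241.6 to 262.6 nt in the other birds. A count of 0 allows up to 3 counts, which is 0.872 and 0.945 CPM in these libraries and 0.319 to 0.697 CPM in the others, covering counting error only. Their part in the choice of the members was not tested. In bulk tissue, fewer cells of a type and less RNA per cell cannot be told apart.

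All 150 members were, by the rule, higher in both photorefractory hour 18 birds than in any other bird. The gap had a median of 0.728 and ran between 0.508 and 4.176 on the log2(CPM + 1) scale. As a ratio of CPM, the lower of the 2 birds stood 1.746-fold (median) above the highest other bird, with a range of 1.432- to 32.8-fold. The mean of the 2 birds was 3.24-fold (median) above the median of the 13 others, with quartiles of 2.39 and 4.79. A gap above 1 was seen for 32 members and a gap above 2 for 4, so for most of the set the gap was below 1. Of all 15239 genes with the minimum count, 1192 (7.82%) had a gap above 0.

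At the edge of the rule, the last member but one had 15.982 and 16.687 CPM in the photorefractory hour 18 birds, against at most 10.931 CPM elsewhere. The last member had 43.005 and 45.339 CPM, against at most 29.938. The first genes outside the set had gaps of 0.5079 and 0.5041, against 0.5083 for the last member. The set thus ends in a continuous run of genes and not at a break.

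The same gap was computed for each other group of 2 birds to place the size of the set. A gap at least as large as that of the last member was reached by 150 genes in photorefractory hour 18, by 4 in photorefractory hour 10 and by 2 in photorefractory hour 14. Photosensitive hour 10 reached it with 26 genes, hour 14 with 13, hour 18 with 44 and hour 22 with 211. Genes with a gap above 1 numbered 32 in photorefractory hour 18, against at most 11, in photosensitive hour 22. By count, photorefractory hour 18 and photosensitive hour 22 held the most such genes. In number of genes, the photosensitive group was ahead past the edge and the photorefractory group past 1. These counts are not shares. Genes with the minimum count in both birds of the group numbered 15239 for photorefractory hour 18, 26698 for photosensitive hour 22 and 18112 to 22911 for the others. Past the edge, the 150 of 15239 genes in photorefractory hour 18 were a larger share than the 211 of 26698 in photosensitive hour 22. Of the genes with the minimum count, a gap above 0 was seen for 7.82% in photorefractory hour 18 and 12.91% in photosensitive hour 22. It was seen for 0.43% to 4.99% in the others.

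**Figure D1:**
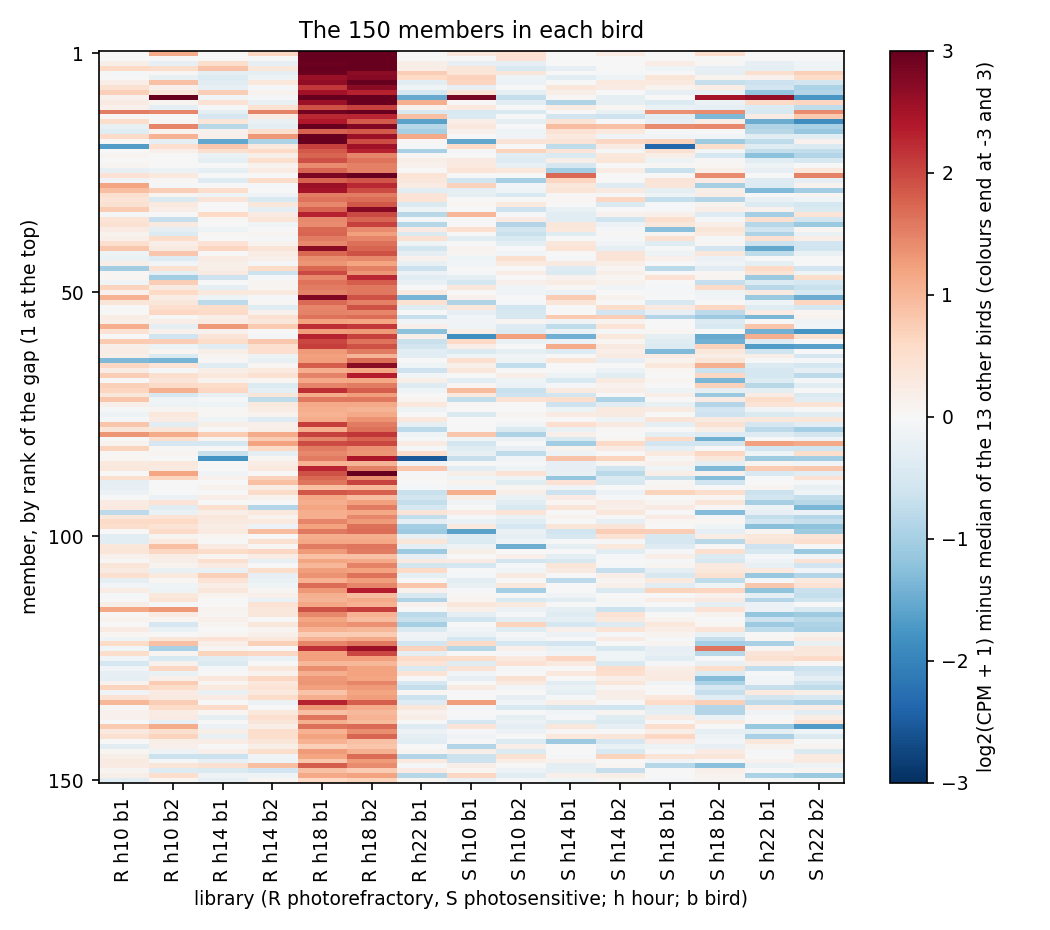
Each row is 1 of the 150 members and each column 1 bird; colour is log2(CPM + 1) minus the median of the 13 birds outside photorefractory hour 18, with colours ending at -3 and 3. Both photorefractory hour 18 columns are high throughout, as the rule requires, while the remaining columns are mixed.

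Summed over the set, the members took 2.654% and 2.813% of the estimated counts of the photorefractory hour 18 birds. Their summed level was 27338.0 ± 1124.9 CPM in photorefractory hour 18, against 11430.4 ± 1867.3 in photorefractory hour 10 and 11097.2 ± 1520.9 in photorefractory hour 14 (SD, n = 2 each), and 9701.8 in the single bird of photorefractory hour 22. In photosensitive birds the sum was 8227.0 ± 1143.0 CPM (hour 10), 7838.9 ± 271.2 CPM (hour 14), 7862.0 ± 571.3 CPM (hour 18) and 9270.4 ± 301.0 CPM (hour 22) (SD, n = 2 each). The sum was uneven across members. The most abundant member made up 24.4% of it and the 10 most abundant 73.4%. Without the 2 most abundant members, the sum was 13654.3 and 16171.7 CPM in the photorefractory hour 18 birds and 3597.8 to 5328.6 CPM in the 13 others.

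Most members were moderately abundant. In photorefractory hour 18 the mean level was 10 to 100 CPM for 97 members, at least 100 CPM for 31 and under 10 CPM for 22, and the median of all 150 was 23.7 CPM, against 25.5 CPM for the other genes with the minimum count. The median gap was 0.83 in the members under 10 CPM, 0.72 in those from 10 to 100 CPM and 0.76 in those of at least 100 CPM. Outside photorefractory hour 18, 140 members had counts in all 13 birds, 10 were at 0 in at least 1 bird and none was at 0 in all 13. The set therefore held genes that were more abundant at photorefractory hour 18 rather than genes detected there alone.

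The member of largest gap, TRINITY_DN72670_c0_g1, a single transcript of 353 nt, had 38.1 and 40.0 CPM in the photorefractory hour 18 birds (131 and 127 counts). Photorefractory birds of hour 10 showed 0 and 1.16 CPM, those of hour 14 showed 0 and 0.536 CPM and the bird of hour 22 showed 0. Photosensitive birds showed 0.273 and 0.355 CPM at hour 10, 0 and 0.175 CPM at hour 14, 0 and 0.416 CPM at hour 18 and 0 in both birds at hour 22. It was near 0 in every bird outside the group, with at most 5 counts in any of them, and the lower photorefractory hour 18 bird was 32.8-fold above the highest other.

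The member ranked 2, TRINITY_DN102281_c0_g1, a single transcript of 344 nt, had 14.2 and 11.3 CPM in the photorefractory hour 18 birds (49 and 36 counts). Elsewhere it had 2 counts (0.355 CPM) in 1 photosensitive bird of hour 10 and 0 in the 12 other birds. This is the nearest to a presence in photorefractory hour 18 alone, and the limit that 0 counts set in the other birds was at most 0.697 CPM.

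The 2 most abundant members behaved otherwise. TRINITY_DN96356_c22_g3, a single transcript of 1200 nt ranked 135 by its gap, had 7082 and 6283 CPM in the photorefractory hour 18 birds. It had 2945 and 4259 CPM in photorefractory hour 10, 4300 and 2893 in photorefractory hour 14 and 3656 in photorefractory hour 22. Photosensitive birds showed 2804 and 2091 CPM at hour 10, then 1969 and 1909 by hour 14, 2293 and 1585 by hour 18, and 3353 and 3314 by hour 22. It was abundant in every bird, and its lower photorefractory hour 18 bird was 1.461-fold above the highest other.

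TRINITY_DN96356_c22_g1, with 10 transcripts and a leading one of 1819 nt, had 5807 and 5679 CPM in photorefractory hour 18. It had 2059 and 3163 CPM in photorefractory hour 10, 3041 and 2255 in photorefractory hour 14 and 2053 in photorefractory hour 22. Photosensitive levels were 1722 and 1479 CPM for hour 10, 2053 and 1369 for hour 14, 1718 and 1183 for hour 18, and 2453 and 2146 for hour 22. These genes share the number DN96356 with 2 further members, and these 4 include the 3 most abundant members. The assembler gives such a number to contigs joined by shared sequence, so their reads may have been split among near copies and their levels are uncertain as levels of separate genes. No sequence was used here, so it was not checked whether these abundant contigs are messenger RNA or ribosomal RNA left after depletion.

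**Figure D2:**
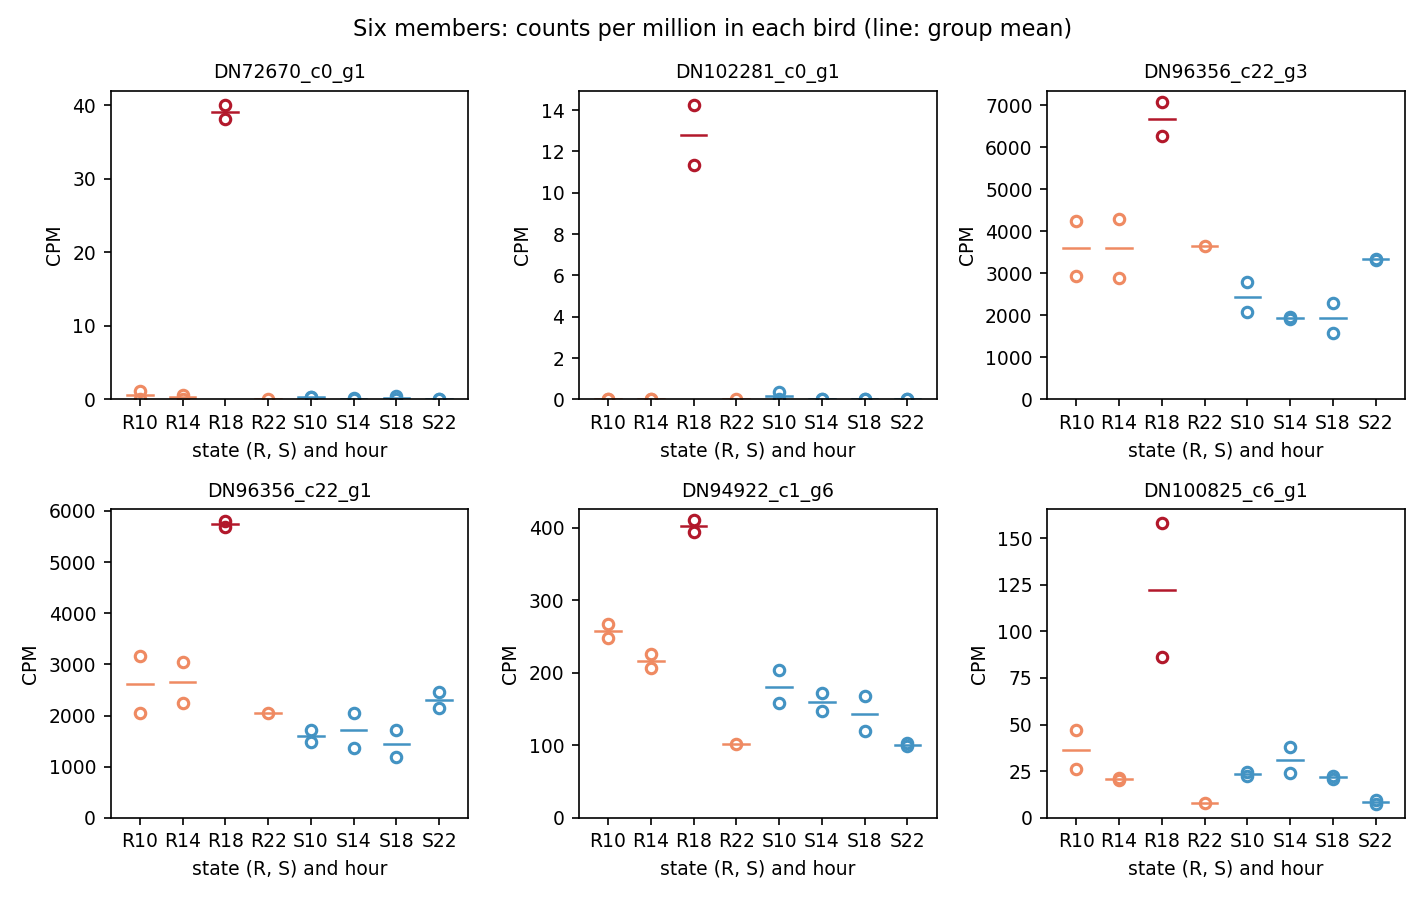
CPM in each bird (circles) and the group mean (line) for the 6 named members, by state (R photorefractory, S photosensitive) and hour. The 2 members of largest gap lie near 0 outside photorefractory hour 18, while the others are present in every bird.

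Members also differed in how the other birds were spread, which the following examples, chosen after their values were seen, illustrate. The member ranked 4, a transcript of 357 nt, had 1009 and 1080 CPM in photorefractory hour 18 and 88.5 to 220 CPM in the 13 other birds. That is a narrow band with a wide gap of 4.58-fold. The member ranked 10, a transcript of 289 nt, had 316 and 304 CPM in photorefractory hour 18. It had 70.3 to 102 CPM in 4 other birds, of 4 groups, and 2.75 to 12.7 CPM in the 9 remaining ones, so birds of the same state and hour differed widely. Over the set, the range across the 13 other birds had a median of 1.462 on the log2(CPM + 1) scale, against 1.438 for the other genes with the minimum count.

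The 2 photorefractory hour 18 birds were close to each other in the members. The second bird was at 1.038-fold of the first (median), with a range of 0.421- to 2.497-fold. It was the higher of the 2 for 86 members and the lower for 64. The birds lay within 1.5-fold of each other for 131 members and more than 2-fold apart for 3. The median absolute difference between them was 0.197 (log2), against 0.322 for the other genes with the minimum count, and the rule, which read the lower bird, favours genes on which the 2 birds are close.

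The members were short as assembled. The leading transcript, the one with the most counts in photorefractory hour 18, had a median length of 505 nt (quartiles 288.25 and 1030, range 201 to 5246), against 1680 nt (quartiles 926 and 2931) in the 15089 other genes with the minimum count. It was under 500 nt in 74 members (49.3%), against 9.7% of the other genes. A single transcript was assembled for 71 members (47.3%), against 25.5%. The median TPM of the members, a level per transcript length scaled to the library, was 72.2 in photorefractory hour 18, against 13.2 in the other genes.

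Shorter fragments and short transcripts thus coincided in this set. The share of all counts on transcripts under 500 nt was 9.08% and 10.99% in the photorefractory hour 18 birds, within the 7.68% to 12.77% of the other birds. The deposited TPM divide by an effective length that takes each library's fragment length into account. On TPM, 148 of the 150 members stood above all 13 other birds. These were 74 of the 74 members under 500 nt and 74 of the 76 longer ones. The median gap of the short members was 0.763 on CPM and 0.746 on TPM, and that of the longer members 0.688 on CPM and 0.647 on TPM. With a ranking by TPM, 98 of the 150 would have been chosen again. Only the place of the 2 birds above the 13 others was checked in this way, on the same reads and on genes already chosen for that place. The part of fragment length in the set was not tested.

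**Figure D3:**
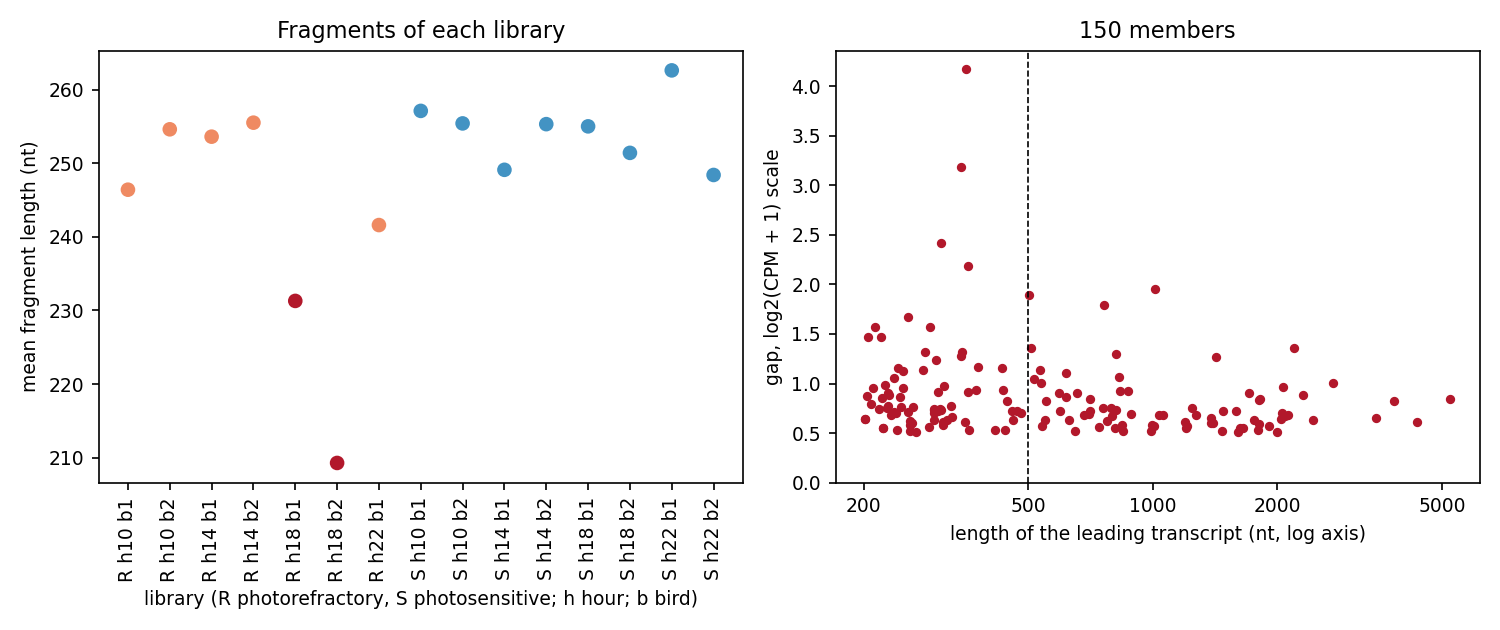
Left, mean fragment length in nt of each library (dark red, photorefractory hour 18; orange, other photorefractory; blue, photosensitive), where both photorefractory hour 18 birds are lowest. Right, gap of each member on the log2(CPM + 1) scale against the length of its leading transcript on a log axis, with a dashed line at 500 nt; the 4 gaps above 2 belong to transcripts of 307 to 357 nt.

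Most members rested on 1 transcript form. Of the 79 members with several transcripts, 60 (75.9%) had the same leading transcript in the 13 other birds as in photorefractory hour 18, against 82.4% of 11243 other genes. In these 79 members the leading transcript held 92.1% of the counts in photorefractory hour 18 (median) and 70.8% in the other birds, against 81.8% and 74.7% in the other genes. In the 19 members whose leading transcript differed, that of photorefractory hour 18 held 48.6% there and 9.0% elsewhere (medians). These 19 were picked because it did not lead in the other birds, so a lower share there is largely given by the choice. With the leading transcript alone, 141 of the 150 members stood above all other birds. For the 71 members of a single transcript the rule fixed this. For the others the leading transcript was picked by its counts in photorefractory hour 18, which favours the same outcome.

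The assembler groups contigs that share sequence into read clusters, and the 150 members came from 144 clusters, 6 of them with 2 members each. These clusters held 139 further genes with the minimum count, of which 23 (16.5%) also had a gap above 0, against 6.9% of the genes outside the set. Their median gap was -0.54, against -0.82. When counts were summed over whole clusters, 100 of the 144 clusters stood above all 13 other birds in photorefractory hour 18, against 5.5% of 12439 other clusters. In the 19 clusters of 1 gene the sum was the member itself, so these stood above by the rule. Of the 125 clusters with several genes, 81 stood above, and their sums held the counts of a member chosen for that order. The difference from the other clusters is therefore a description. In the members' clusters that did not stand above, the order of the birds that the member showed alone was lost once the remaining contigs were added.

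Outside photorefractory hour 18, the highest bird was more often photorefractory than photosensitive. It was 1 of the 5 other photorefractory birds for 94 members (62.7%), against 30.7% of the other genes with the minimum count. Over hours 10 and 14, which hold 4 birds of each state, the highest bird was photorefractory for 87 members (58.0%) and photosensitive for 36 (24.0%), against 22.5% of the other genes for each state. The share of photorefractory birds was 60.7% with TMM factors, 58.0% on TPM and 61.8% among the 76 members of at least 500 nt. By group mean, the next highest group was photorefractory hour 10 for 52 members (34.7%, against 13.7% of other genes) and photorefractory hour 14 for 31 (20.7%, against 7.7%). Photosensitive hour 18, the same hour in the other state, was next for 14 members (9.3%, against 22.5%). The rule read the highest of these 13 birds, and a gene with 1 very high bird among them could not enter, so these shares are a description.

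**Figure D4:**
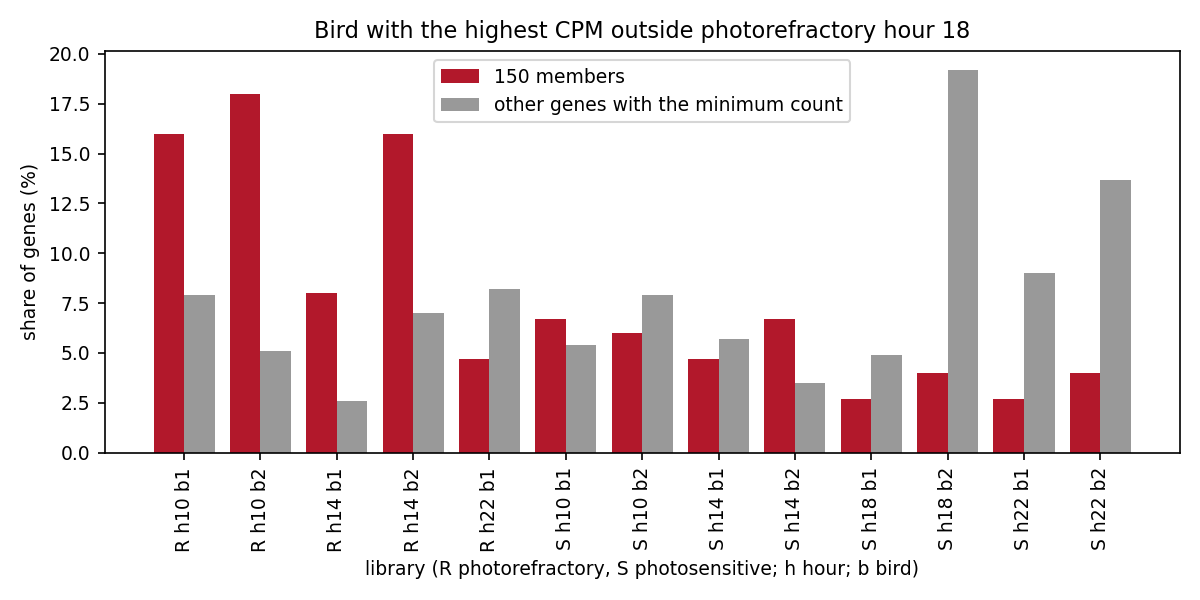
Share of genes (%) for which each bird outside photorefractory hour 18 had the highest CPM, for the 150 members (red) and for the other genes with the minimum count (grey); R photorefractory, S photosensitive, h hour, b bird. Members had their next highest bird mostly in photorefractory hours 10 and 14, while 1 photosensitive hour 18 bird was highest for 19.2% of the other genes and 4.0% of members.

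Tests were made among the 13 birds outside photorefractory hour 18 alone, over 70248 genes, with edgeR's quasi-likelihood test. Of the 150 members, 147 passed its filter on low counts, which did not use the photorefractory hour 18 birds. The common coefficient of variation between birds was 36.7%. The levels of the 13 birds entered the rule only through the highest of them. The tests are therefore apart from the contrast that chose the members, but not wholly free of the rule. Members also had to hold the minimum count in both photorefractory hour 18 birds, which was not required of all genes tested. The choice could thus favour genes that are high in photorefractory birds at any hour. Shares and medians were not computed for the other genes with the minimum count, so those of all genes tested describe an unlike set.

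The first comparison asked whether the members already differed between the states at hours 10 and 14, where each state had 4 birds. No member was called in either direction in photorefractory against photosensitive birds by edgeR's quasi-likelihood test, and over all genes tested 0% were called higher and 0% lower. The smallest adjusted p among members was 0.564. At an unadjusted p under 0.05, 31 members (21.1%) were higher in photorefractory birds and 3 (2.0%) lower, against 3.1% and 5.2% of all genes tested. The median log2 fold change of the members was 0.33 (quartiles 0.10 and 0.52), against -0.04 over all genes, and 123 of the 147 members (83.7%) had a positive one, against 43.1%. The median was 0.30 in the longer members and 0.35 in those under 500 nt. For the whole set its jackknife SE, with all left-out birds treated as 1 sample, was 0.10, which is not a spread within groups. Members were chosen for their level in photorefractory birds and all genes tested were not. The differences between members and all genes in these shares and medians are therefore a description, and the part of the choice in them was not tested. DESeq2 called 1 member higher, with 0.0512% of all genes called higher.

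The 2 most abundant members had the smallest p-values of the set in this comparison, and their differences were larger than the median. Over hours 10 and 14, TRINITY_DN96356_c22_g3 had 2893 to 4300 CPM in the 4 photorefractory birds and 1909 to 2804 CPM in the 4 photosensitive birds. The log2 fold change was 0.83 (SE 0.19), with an adjusted p of 0.564 by edgeR, so this member was not called. The birds of the states did not overlap, but how often that held over all genes tested was not computed. For TRINITY_DN96356_c22_g1, the photorefractory birds had 2059 to 3163 CPM and the photosensitive birds 1369 to 2053 CPM, with a log2 fold change of 0.77 (SE 0.20) and the same adjusted p by edgeR.

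The second comparison asked whether the members stood higher at hour 18 in the other state. In photosensitive hour 18 against photosensitive hour 10, no member was called by edgeR's quasi-likelihood test, with 0% of all genes called higher and 0% lower, and the smallest adjusted p among members was 0.273. At an unadjusted p under 0.05, 11 members (7.5%) were higher and 2 (1.4%) lower, against 5.5% and 8.3% of all genes. The median log2 fold change was 0.14, against -0.14 over all genes, with a jackknife SE of 0.27. With limma on log2(TPM + 1) the median was -0.11, so no direction can be given for the set in photosensitive birds.

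The hours on either side of hour 18 in the photorefractory state were then compared with hour 10. In photorefractory hour 14 against photorefractory hour 10, edgeR called no member, with 0% of all genes higher and 0% lower. At an unadjusted p under 0.05, 1 member (0.7%) was higher and 5 (3.4%) lower, against 2.8% and 1.4% of all genes. The median log2 fold change was -0.07, against 0.06 over all genes, with a jackknife SE of 0.14. No difference was thus detected 4 h before the hour at which the members stood highest, and the change of hour 14 against hour 10 was not called as different between the states for any member (0% of all genes in either direction, smallest adjusted p 0.634 by edgeR). For that interaction 3 members (2.0%) were higher and 9 (6.1%) lower at an unadjusted p under 0.05, against 5.3% and 2.5% of all genes.

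In photorefractory hour 22 against photorefractory hour 10, 2 members were lower and none higher by edgeR's quasi-likelihood test. Over all genes tested, 0.477% were called lower and 0.246% higher. At an unadjusted p under 0.05, 41 members (27.9%) were lower and 1 (0.7%) higher, against 9.8% and 13.4% of all genes. The median log2 fold change was -0.64 (quartiles -1.23 and -0.08), against 0.27 over all genes. Its jackknife SE was 0.15, but the only hour 22 bird could not be left out. That SE therefore does not cover variation between birds at hour 22. The median was -0.48 in the longer members and -0.88 in those under 500 nt. This rests on 1 bird at hour 22, assumed to vary like the other groups. Its library was among the deepest (8951449 counts, against 5662986 and 4306137 at hour 10) and its fragments were 241.6 nt long. Of its counts, 8.84% fell on transcripts under 500 nt, against 11.13% and 9.96% at photorefractory hour 10. The part of these in the difference was not tested. On log2(TPM + 1) with limma the median was -0.18. Calls numbered 0 without the first bird of photorefractory hour 10 or without either photosensitive hour 14 bird.

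The 2 members called were TRINITY_DN94922_c1_g6 and TRINITY_DN100825_c6_g1. TRINITY_DN94922_c1_g6, a single transcript of 741 nt, had 101 CPM in the photorefractory hour 22 bird, against 268 and 247 CPM in photorefractory hour 10. Its log2 fold change was -1.54 (SE 0.29), with an adjusted p of 0.0362 by edgeR and of 5.77e-05 to 0.205 over the alternatives. It had 394 and 410 CPM in photorefractory hour 18 and 207 and 226 CPM in photorefractory hour 14. Photosensitive birds had 103 and 98.7 CPM at hour 22, against 203 and 159 CPM at hour 10, so both states had their lowest birds at hour 22.

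TRINITY_DN100825_c6_g1, with 2 transcripts and a leading one of 244 nt, had 7.82 CPM in the photorefractory hour 22 bird, against 47.0 and 26.2 CPM in photorefractory hour 10. Its log2 fold change was -2.43 (SE 0.47), with an adjusted p of 0.0407 by edgeR and of 0.000134 to 0.216 over the alternatives. It had 158 and 86.3 CPM in photorefractory hour 18 and 20.03 and 21.4 CPM in photorefractory hour 14. Photosensitive birds had 9.79 and 7.23 CPM at hour 22, against 24.5 and 22.2 CPM at hour 10. Its lowest birds in each state were again those of hour 22, which were also among the deepest libraries.

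**Figure D5:**
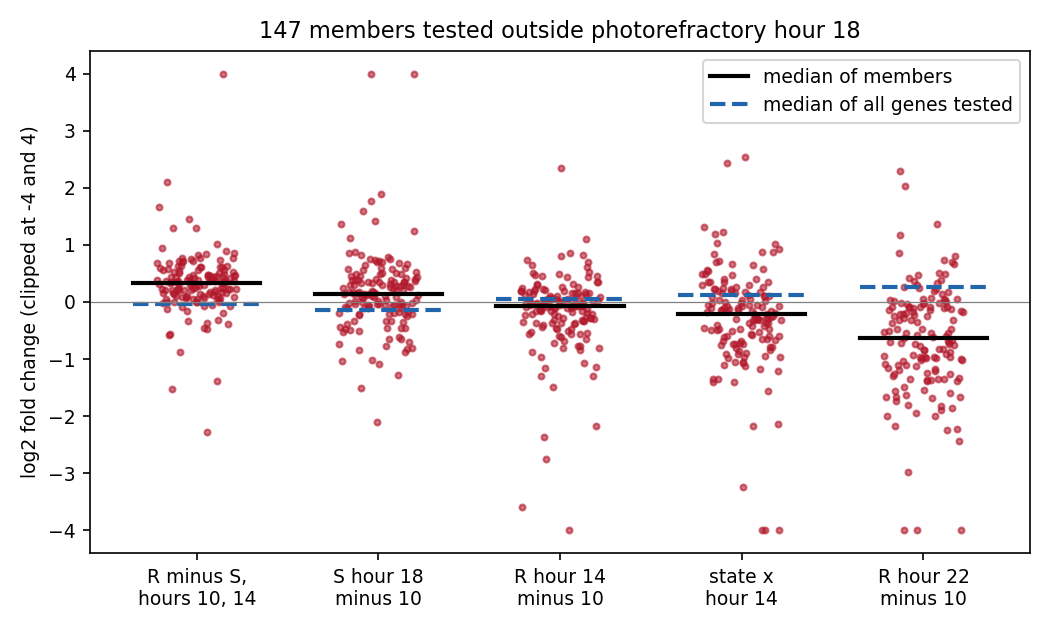
Log2 fold change of each of the members tested (points, clipped at -4 and 4, which affects 10 points), with the median of the members (black line) and of all genes tested (dashed blue line), for each comparison among the 13 birds outside photorefractory hour 18. The members' median lies at 0.33 for photorefractory against photosensitive birds over hours 10 and 14. It lies at -0.64 for photorefractory hour 22 against hour 10, which rests on 1 bird at hour 22.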

How the data were processed

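The authors sequenced rRNA-depleted, stranded total RNA of single hypothalami as paired reads, trimmed them with Trimmomatic, assembled them with Trinity, reduced redundancy with CD-HIT and pseudoaligned with kallisto in a version not given in the sources used here. Deposited files hold, per transcript and bird, estimated counts (expected counts, not normalized) and TPM made by the authors. rRNA was removed with a mix made for plants, per the study's methods.

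The members and comparisons were chosen with earlier results of these data known. Counts of 552023 transcripts were summed per assembled gene (the identifier without its isoform number) and rounded for tests. Tests used edgeR 4.0.16 in R 4.3.3 (glmQLFit, glmQLFTest, TMM factors, 1 mean for each of 7 groups, Benjamini-Hochberg over all genes tested, calls at an adjusted p of 0.05 or less), on the 13 libraries outside photorefractory hour 18 and genes with at least 5 counts in at least 2 of them. SEs came from the test's F. The jackknife left out each bird in turn and treated all left-out birds as 1 sample, also those of groups outside the comparison. Its SEs are therefore a rough guide and do not measure the spread between birds within groups. Depth was 3176062 to 9403923 counts per library.

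Named members were the 2 of largest gap, the 2 of highest mean CPM at photorefractory hour 18, any at 0 in all 13 other birds (there were none) and, per comparison, up to 2 called higher and 2 lower whose birds do not overlap. Mean fragment length was taken over transcripts above 2000 nt. The tests were tried on simulated counts. Every test was repeated with DESeq2 1.42.0, with limma 3.58.1 (pseudocounts of 1 and 0.1 on TPM, log2), with RLE factors, without a filter, at a minimum of 10, on all 15 libraries, on only the groups compared, with a block for the bird number and without each bird in turn. For the choice of members they were TPM, TMM, pseudocounts of 0.1 and 5, minimum counts of 10 and 50, the mean of the 2 birds, thinning and single transcripts. The checks of TPM, clusters and leading transcripts within the set were added after seeing the data.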

Additional observations from a re-analysis of the deposited data

How the results depend on the processing

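Of the 150 members, 98 were chosen again with TPM, 96 with a minimum count of 50 and 33 when single transcripts were ranked. TMM factors kept 136, pseudocounts of 0.1 and 5 kept 147 and 132, a minimum count of 10 kept 116, the mean of the 2 birds 125 and thinning to 3176047 counts 129. With each bird left out, 42 to 148 were kept: 42 without the first photorefractory hour 18 bird, 56 without the second and 134 to 148 without each of the others. For photorefractory hour 22 against hour 10, members called, beside the share of all genes called, numbered 14 (9.5%) with DESeq2 (5.28%), 19 (13.3%; 18 lower and 1 higher) with only the groups compared (14.1%), 9 (6.0%) without a filter (0.977%) and 8 (5.5%) with a minimum of 10 (2.52%). With limma they numbered 4 (2.7%, 3 lower and 1 higher) at a TPM pseudocount of 1 (2.19% of all genes). They numbered 6 (4.1%, 5 lower and 1 higher) at one of 0.1 (7.21%). With both directions pooled, the share of members was below that of all genes in this setting and with only the groups compared. The members called there were nearly all lower, while most genes called at a pseudocount of 0.1 were higher. These pooled shares therefore do not compare lower calls alone. Members called for photorefractory hour 22 numbered 2 (1.4%) with RLE factors (0.713% of all genes) and 2 (1.3%) with all 15 libraries (0.613%). With each bird left out, the median log2 fold change of the members was -0.687 to -0.493. The calls changed with the bird left out. They fell away without the first photorefractory hour 10 bird or either photosensitive hour 14 bird. No value could be had without the only photorefractory hour 22 bird. For photosensitive hour 18 against hour 10, 3 members (2.0%) were called without a filter, all higher. Of all genes 0.435% were called there, 369 of 1346 higher. DESeq2 called 2 members (1.4%), both higher, and 1.42% of all genes, 512 of 998 higher. With each bird left out, the median log2 fold change of the members was 0.057 to 0.407. A call then appeared only without the first photosensitive hour 18 bird. The median turned to -0.106 with limma at a TPM pseudocount of 1 and -0.117 at one of 0.1. For photorefractory hour 14 against hour 10, 1 member (0.7%) was called lower without a filter, with 0.04% of all genes called in either direction. The median turned to 0.043 there, and was 0.0 with limma at a pseudocount of 0.1. For photorefractory against photosensitive birds over hours 10 and 14, 3 members (2.0%) were called without a filter, all higher. Of all genes 0.13% were called there, 165 of 401 higher. DESeq2 called 1 member (0.7%) higher, beside 0.117% of all genes in either direction and 0.0512% higher. The interaction had 0 calls under each of these settings. The cause of these shifts was not tested. The bird numbers do not pair the birds: over 15 pairs of groups the deviations of same-numbered birds correlated at -0.234 to 0.108 (median 0.021), and the bird number as a replicate block gave 6 calls for photorefractory hour 22 (1.62% of all genes called) and 0 in the other comparisons.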
